A study of Mus musculus with 10 samples.

Results

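The baseline transcript pattern of M-1 cells is described from the 4 channels titled Control 1 and Control 2, each read in Cy3 and in Cy5, out of 10 channels in the series. M-1 is a cell line derived from the mouse cortical collecting duct, and the study used it to look for genes that respond early to dexamethasone. In the other 6 channels, which form 3 arrays, Cy5 was titled as treated and Cy3 as control. Here the channels are given in a fixed order: control 1 Cy3, control 1 Cy5, control 2 Cy3 and control 2 Cy5. Those that share a number are called pair 1 and pair 2.

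All 4 channels held total RNA of M-1 cells at passage 34 to 36, grown to confluence and then kept for 24 to 36 h in medium with charcoal- and dextran-treated serum, which is nominally free of steroid hormones. The line comes from a mouse that carried an early-region transgene of simian virus 40, so every channel stands for 1 immortalised line and not for the duct in the animal. The labels contradict each other on what followed. The titles name all 4 channels as control, whereas the treatment field gives 3 h in steroid-free medium for 1 of them, control 1 Cy3, and 100 nM dexamethasone for 3 h for the other 3. Grouping here follows the titles, no comparison of treated with untreated cells is made, and the word untreated below means titled as control. The label protocol of control 2 Cy3 also names Cy5 dendrimers. Nothing in the labels says that the pairs came from separate cultures, so spreads below may be technical.

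The arrays carried 15600 cDNA clones spotted in duplicate, 31200 spots in all, and the measured quantity was the linear intensity of each spot. Pair 1 listed 31022 spots and pair 2 listed 30942. Median spot intensities were 488, 327, 867 and 1076, and no spot lay at the 16-bit scanner ceiling of 65535. In pair 1, 178 of 178 blank spots were blank in both channels, and in pair 2, 258 of 258, whereas the pairs had 3 blank spots in common. The channels of a pair may thus share a slide, and an SD over the 4 channels below is not a spread over 4 independent samples. The 2 spots of a clone correlated across clones at r = 0.929, 0.971, 0.952 and 0.949 on the log2 scale.

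Each clone was placed by its rank within the channel, on a scale from 0 (dimmest) to 100 (brightest) called the percentile below. A gene took the median of its clones in each channel, and its level is the mean ± SD over the 4 channels. Of 15561 clones valued in all 4 channels, 9846 carried 1 gene symbol, which gave 7132 genes, 5191 of them with 1 clone. The percentile orders spots by brightness. Brightness also depends on the amount and length of the spotted cDNA and on cross-hybridisation, so a difference between genes is a difference in signal and not a measured difference in transcript number. Over all named genes the median level was 53.8.

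The collecting duct is the last part of the nephron that adjusts urine. Its principal cells take up sodium through the epithelial sodium channel and water through aquaporins under the control of aldosterone and vasopressin, and its intercalated cells secrete acid or base with proton pumps and anion exchangers. As a simple epithelium it is built on keratins of the simple type, chiefly Krt8, Krt18, Krt19 and Krt7, and on tight junctions made of claudins. Glucocorticoids reach the duct through the glucocorticoid receptor, and Sgk1, a kinase that keeps sodium channels at the surface, is among their known targets.

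In these channels the machinery of protein synthesis, energy metabolism and the cytoskeleton gave the brightest signals, together with simple-epithelial keratins, Epcam, Cldn7 and Cldn3. Some other junction genes, such as Cdh1 and Cldn8, were dim. Few listed genes of the principal cell (6 of 24) and the intercalated cell (4 of 20) were measured. Those measured were mostly in the middle or dim. Markers of blood, endothelium, liver and germ line were mostly dim. A level of 90 or more was reached by 521 of 7132 named genes, which is 7.31%. All 4 channels were at 90 or more for 377 genes, 5.29%. A level of 75 or more was reached by 1629 genes, 22.8%, and 3186 genes, 44.7%, lay under 50. These shares are the background for every count below.

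**Figure D1:**
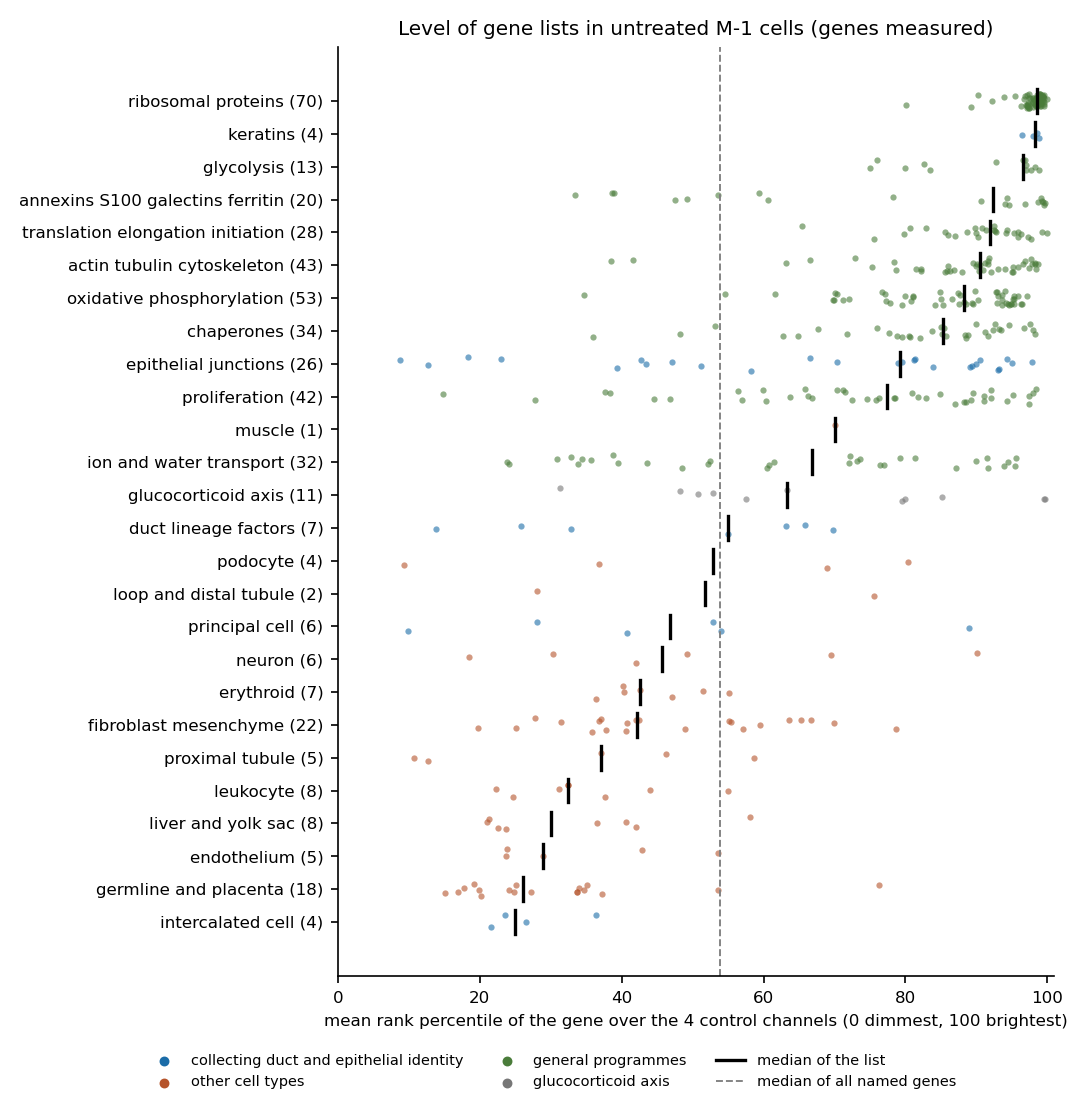
Level of each gene list in the 4 control channels. Each point is a gene at its mean percentile (horizontal axis, 0 dimmest to 100 brightest), black bars mark list medians, the number of genes measured stands in brackets and the dashed line is the median of all named genes, 53.8. Ribosomal proteins (median 98.6) and keratins (98.3) lie at the bright end, and germline and placenta (26.1) and intercalated cell genes (25.01) at the dim end.

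The brightest named gene was Tpt1, which encodes a translationally controlled protein of growing cells. Its spot intensities were 22220, 17772, 55334 and 54488, and its level was 99.98 ± 0.015 (SD, n = 4 channels). It stood above every other named gene in the mean over channels. Next came the ribosomal protein gene Rps29 at 99.8, 99.99, 99.9 and 99.96, with spot intensities of 12279, 18457, 44864 and 45979. Ythdf3, which encodes a reader of methylated adenosine in RNA, was at 99.8 ± 0.12 (SD, n = 4 channels) on 1 clone. Ly6e, which encodes a surface protein anchored to the membrane by lipid, was at 99.6 ± 0.088 (SD, n = 4 channels). Most of the 25 brightest genes encode ribosomal proteins, an elongation factor, metallothioneins or ferritin. The others were Ythdf3, Ly6e, Tmed3, S100a6, Slc14a1 and Pura, besides Tpt1 and the ribosomal pseudogene Rpl17-ps5.

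Slc14a1 encodes a urea transporter of red cells and of the vasa recta. Its spot intensities were 6995, 10607, 29002 and 24153, and its percentiles were 99.3, 99.3, 99.5 and 99.4. All 4 channels thus placed its 1 clone near the top of the array. The erythroid list, given below, had no gene at 90 or more.

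Metallothioneins are small proteins that bind zinc and copper, and their genes are induced by metals and by glucocorticoids. Mt1 was at 99.4, 99.6, 99.97 and 99.96, with spot intensities of 7400, 12250, 51550 and 44877. Mt2 was at 99.6, 99.7, 99.5 and 99.6 on 2 clones. Both genes were at the top in both pairs, and in Mt1 the channels of pair 2 were above those of pair 1.

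The promoters of 4 of these bright genes are shown to set motifs beside genes bright in every channel: the core of the metal response element in the metallothionein genes, the letters TATAAA in a keratin gene and an ETS-type motif in a ribosomal protein gene. Sequences are from RefSeq, build GRCm38.p6, and run 5′ to 3′ on the strand of the gene from 130 bases before to 20 bases after its start. Capitals mark every match on either strand, for TGCACNC or TGCGCNC in Mt1 and Mt2, TATAAA in Krt8 and CCGGAA in Rps27. A match is a match of letters and not a shown site. Rps27 was picked among bright ribosomal protein genes because its window holds a CCGGAA match, so that match was fixed in advance.
Mt1, chr8:94178959-94179108, plus strand: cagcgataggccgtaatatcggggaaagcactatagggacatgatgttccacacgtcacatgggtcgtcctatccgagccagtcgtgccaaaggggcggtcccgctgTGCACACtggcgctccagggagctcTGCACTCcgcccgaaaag
Mt2, chr8:94172488-94172637, plus strand: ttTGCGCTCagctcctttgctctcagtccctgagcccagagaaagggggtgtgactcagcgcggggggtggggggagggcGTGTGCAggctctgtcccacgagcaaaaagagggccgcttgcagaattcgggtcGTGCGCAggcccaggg
Krt8, chr15:102004323-102004472, minus strand: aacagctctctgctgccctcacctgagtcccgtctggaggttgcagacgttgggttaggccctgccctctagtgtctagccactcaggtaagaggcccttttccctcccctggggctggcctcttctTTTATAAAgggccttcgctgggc
Rps27, chr3:90213629-90213778, minus strand: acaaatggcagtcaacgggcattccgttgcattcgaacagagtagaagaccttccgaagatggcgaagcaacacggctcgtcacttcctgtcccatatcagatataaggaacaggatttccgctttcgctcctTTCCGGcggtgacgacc

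The metal response core had 2 matches in the Mt1 window, both on the strand shown, and 3 in the Mt2 window, 2 of them on the other strand. In Krt8 a forward and a reverse match of TATAAA overlap and lie across the annotated start, not upstream of it where a TATA box is known to act, and in Rps27 the 1 match of CCGGAA is on the other strand. Over the full 300-base promoters of the table, 250 bases before to 50 after the start, both strands were searched for each motif, and 5773 of the 7132 named genes had a promoter. TATAAA was in 14.1% of promoters of genes at 90 or more (412 genes), in 7.21% of all named genes, in 10.3% of genes under 25 (555 genes) and in 14.2% of all 27025 promoters of the table. CCGGAA was in 50% of the 56 ribosomal protein promoters, in 36.4% of genes at 90 or more, in 22.5% of genes under 25 and in 30.6% of all named genes, against 15.2% of the whole table. The metal response core was in 36.8% of the named genes' promoters and 25.6% of the table, so its presence alone is common. CCAAT was in 39.1% of the named genes' promoters and 37.9% of the table. GGGCGG was in 65.4% and 35.9%. These shares are descriptions without a test.

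The protein synthesis genes were the brightest group as a whole. Of 79 listed cytosolic ribosomal protein genes 70 were measured, with a median level of 98.6, and 68 of the 70 were at 90 or more, against 7.31% of all named genes. After Rps29 the brightest were Rpl12, Rplp1 and Rpl13, each at 99.6, and Rps27 at 99.5 ± 0.32 (SD, n = 4 channels). The exceptions were Rplp2, an acidic stalk protein, at 92.9, 93.7, 86.4 and 83.9, and Rpl30 at 76.4, 81.6, 80.6 and 82.0. The 2 clones of Rpl30 stood at 60.6 and 99.6, so its level rests on clones that differ. None of the 70 was under 75.

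Taken by clone, 177 clones of ribosomal protein genes made up 1.14% of the clones and 7.93, 11.9, 10.8 and 9.60% of the summed intensity of the channels. Of these clones 164 were at 90 or more and 3 were under 50, the lowest at 23.5. Among the 100 brightest clones of the array 34 were ribosomal, from 26 genes, and 11 belonged to the list of translation factors. Clones of ribosomal protein genes can also take up signal from near-identical copies, and Rpl17-ps5, a pseudogene by name, was itself at 99.5 beside Rpl17 at 99.4. Levels of single members are uncertain to that extent.

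Translation factors followed. The list had 28 measured genes, a median of 91.9 and 17 genes at 90 or more. Eef1a1, the elongation factor that brings transfer RNA to the ribosome, was at 99.3, 99.2, 99.4 and 99.4, with 17 clones that ranged from 43.7 to 99.9. Eif4a1, the helicase of the cap-binding complex, was at 97.7 ± 0.086 (SD, n = 4 channels), and Eef2, which moves the ribosome along, at 97.3 ± 0.24 (SD, n = 4 channels). Both had 4 clones within 96.9 to 98.2. The dimmest were Eif4h at 65.5 and Eif4b at 75.5, and in Eif4h the channels of pair 1 (86.6 and 75.8) stood above those of pair 2 (50.1 and 49.4).

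Genes of energy metabolism were mostly bright, those of glycolysis more than those of oxidative phosphorylation in their medians. Of 13 measured glycolysis genes the median was 96.6 and 8 were at 90 or more. Gapdh was at 98.5, 99.2, 99.3 and 98.7, and Ldha, which makes lactate from pyruvate, at 97.1, 96.9, 97.0 and 97.2. Tpi1, Pgk1, Aldoa, Pgam1 and Pkm lay between 96.6 and 98.3. The lowest were Hk1 at 74.998, Pfkl at 76.0 and Pfkm at 80.0, which are the hexokinase and phosphofructokinase steps at the entry of the pathway.

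For oxidative phosphorylation the median over 53 measured genes was 88.2, with 22 genes at 90 or more and 1 under 50. Small subunits of cytochrome c oxidase led, with Cox6c at 97.2 ± 0.30 and Cox6b1 at 96.5 ± 0.38 (SD, n = 4 channels each). Ndufa7, a subunit of complex I, was the dimmest at 34.7 ± 12.2 (SD, n = 4 channels) on 1 clone. Cox8a stood at 54.6, but its 2 clones were at 12.8 and 96.4. The level of a gene can therefore depend on the clone that was spotted.

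Cytoskeleton genes had a median of 90.6 over 43 measured, with 24 at 90 or more. The actin-binding peptide genes Tmsb10 (98.7) and Tmsb4x (98.3), the tubulin gene Tuba1b (98.4), and the actins Actg1 (98.2) and Actb (97.9) were the 5 brightest. Cfl1, which cuts actin filaments, varied little, at 97.6, 97.7, 97.7 and 97.8. Vasp at 41.6 and Lasp1 at 38.4 were the exceptions under 50. In Lasp1 the pairs were far apart, at 63.5 and 78.7 against 8.2 and 3.3.

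Chaperones had a median of 85.3 over 34 genes, with 11 at 90 or more. Ppia, which encodes cyclophilin A, led at 98.3 ± 0.36 (SD, n = 4 channels), followed by Pdia3, a disulfide isomerase of the endoplasmic reticulum, at 98.0 and the small heat shock gene Hspb1 at 97.6. Hspa8, the constitutive heat shock protein, was at 96.0, 96.6, 97.1 and 97.1 on 6 clones. Dnajc3 was the dimmest, at 36.0. The mean of Fkbp5, 48.3, describes neither pair, since it was at 85.4 in pair 1 and 11.1 in pair 2.

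A list of annexins, S100 proteins, galectins, metallothioneins and ferritins divided into bright and dim members. It had 20 measured genes, 11 at 90 or more and 5 under 50, with a median of 92.4. In 3 of the 20, among them Anxa3 and Anxa11, the pair means lay over 50 points apart, against 3.79% of all named genes. For these the mean over the 4 channels describes neither pair. S100a6, a calcium-binding protein of dividing cells, was at 98.6, 99.5, 99.8 and 99.9, and the ferritin genes Fth1 and Ftl1, which store iron, were at 99.3 and 99.1. Anxa2, an annexin of the membrane skeleton, was at 98.8 ± 0.29 (SD, n = 4 channels). Lcn2, a secreted iron carrier known from injured tubules, was at 95.8, 95.2, 92.0 and 94.7. Anxa11 was the dimmest at 33.4, with 63.9 and 55.6 in pair 1 against 7.9 and 6.4 in pair 2.

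All measured keratins of simple epithelia were bright. Krt7 was at 99.4, 99.6, 98.4 and 98.2, with spot intensities of 7761, 12334, 17742 and 13574. Krt18 was at 98.9, 99.2, 98.0 and 98.1, and its 3 clones lay within 98.5 to 99.05. Krt8, whose product pairs with that of Krt18 in filaments, was at 98.6, 99.2, 96.5 and 97.5. Its 3 clones were at 90.1, 98.0 and 98.7, and the lowest of them was at 80.3 and 82.5 in pair 2. Krt19 was at 94.9, 96.6, 97.0 and 97.2. By the median of their clones, all 4 measured keratins of the 15 listed were at 90 or more in every channel, with a list median of 98.3. Leaving out clones whose spots differed moved Krt8 from 98.0 to 94.4.

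Junction and adhesion genes were spread over the whole range. Of 39 listed 26 were measured, with a median of 79.3, 6 at 90 or more, 14 at 75 or more and 8 under 50. Epcam, an epithelial adhesion molecule, was the brightest at 97.1, 97.5, 98.2 and 98.6. The claudin genes Cldn7 and Cldn3, both of the tight junctions of this segment, were at 95.02 ± 1.2 and 93.3 ± 1.7 (SD, n = 4 channels each). Ctnnb1, which encodes beta-catenin, was at 93.9, 93.4, 95.3 and 94.6, and Lsr, which seals contacts of 3 cells, at 96.3, 96.7, 90.3 and 88.7. These genes were bright in both pairs, as were Itga6 (90.5), Tjp1 (89.96), Jup (89.5) and Perp (89.1).

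The gene of E-cadherin, the main adhesion molecule of epithelia, was dim. Cdh1 was at 12.8, 49.2, 5.4 and 24.3, and its 2 clones were at 16.2 and 29.6. In both pairs the Cy5 channel placed it above the Cy3 channel. Vcl, which encodes vinculin, was at 18.3, Cldn8 at 12.7 and Dsc2, a desmosomal cadherin, at 8.7, each on 1 clone. Cldn8 is known from the distal nephron and collecting duct. At these levels the order of clones was only weakly repeated between pairs, so they are read as dim and not ranked among themselves.

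**Figure D2:**
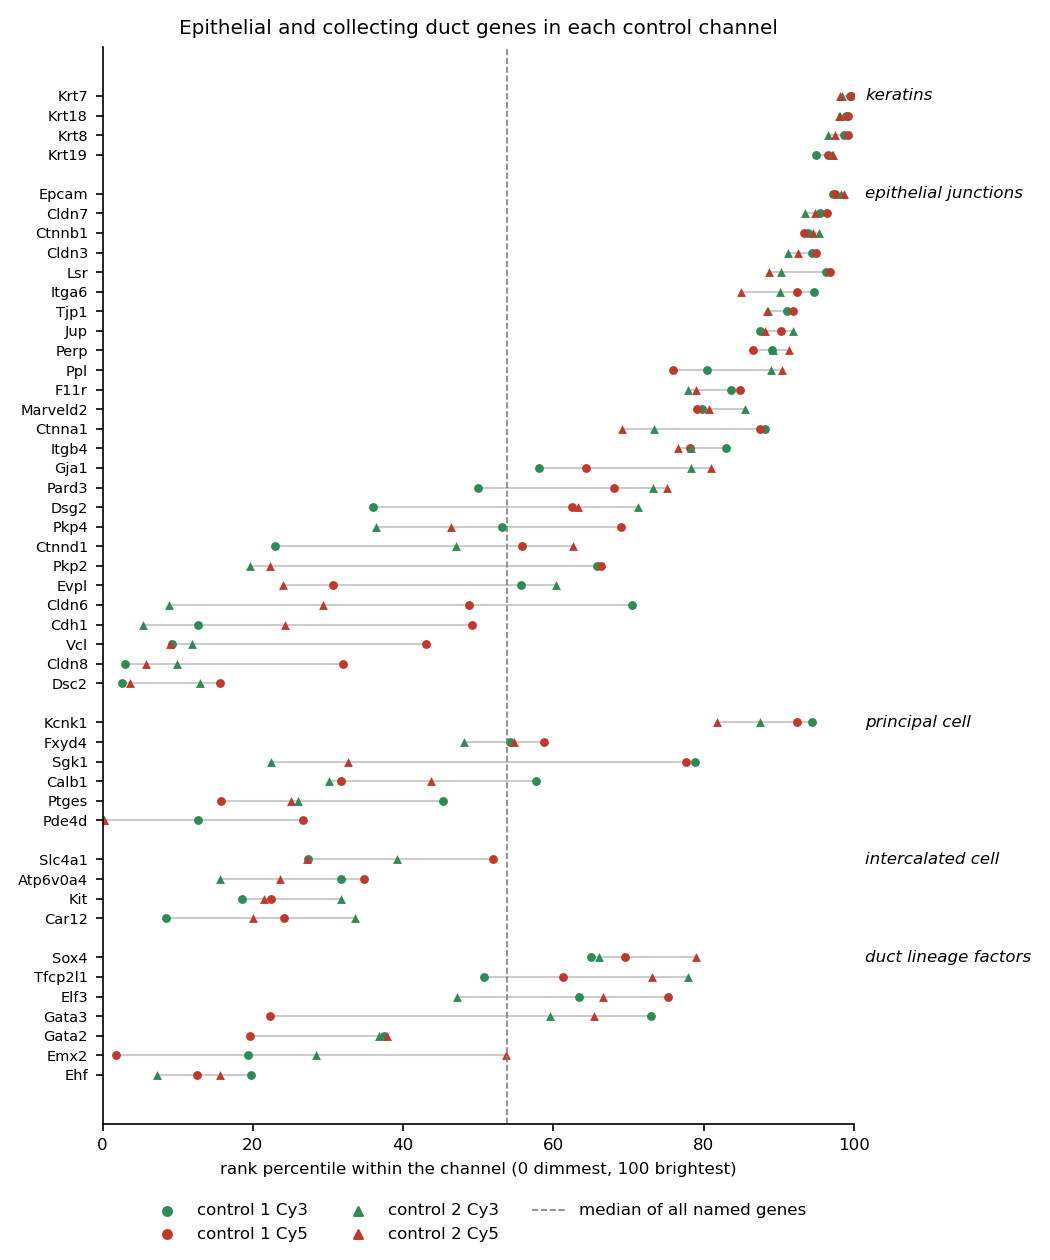
Epithelial and collecting duct genes in each control channel. The horizontal axis is the percentile within the channel, circles are pair 1 and triangles pair 2, green is Cy3 and red is Cy5, lines join the 4 values of a gene and the dashed line is the median of all named genes. Keratins and the brightest junction genes have 4 values close together, whereas genes such as Sgk1 (78.8 and 77.6 against 22.4 and 32.7) split by pair.

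Few genes of the principal cell programme were measured, and 1 of them was bright. Of 24 listed genes 6 had a named clone, with a median of 46.8, none at 90 or more and 3 under 50. Kcnk1, a potassium channel of the 2-pore family, was the brightest at 94.4, 92.4, 87.4 and 81.8. Fxyd4, a regulator of the sodium pump known from the collecting duct, was at 54.2, 58.8, 48.1 and 54.8, close to the middle of the array in every channel. Sgk1 is given with the glucocorticoid genes. Calb1 was at 40.8, Ptges at 28.0 and Pde4d at 9.9.

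Intercalated cell genes were all dim. The 4 measured of 20 listed had a median of 25.01 and all lay under 50, against 44.7% of named genes. Slc4a1, the anion exchanger of the acid-secreting cell and of red cells, was at 27.3, 51.9, 39.2 and 27.2. Atp6v0a4, a proton pump subunit of that cell, was at 31.7, 34.9, 15.7 and 23.6 over 2 clones. Kit was at 23.6 ± 5.7 and Car12, a carbonic anhydrase, at 21.5 ± 10.4 (SD, n = 4 channels each). No channel placed any of the 4 genes above 53.8, the median of named genes. In bulk RNA, fewer cells of a type and less RNA per cell cannot be told apart.

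Transcription factors of the duct lineage lay on both sides of the middle, and none was bright. The 7 measured of 31 listed had a median of 55.1, with none at 75 or more and 3 under 50. Sox4 was at 64.9, 69.5, 66.1 and 78.9, Tfcp2l1, a factor of the collecting duct, at 50.8, 61.3, 77.9 and 73.1, and Elf3, a factor of epithelia, at 63.4, 75.3, 47.1 and 66.6. Gata3, which is needed for the nephric duct, was at 73.0, 22.3, 59.6 and 65.4, lowest in control 1 Cy5. Gata2 at 32.9, Emx2 at 25.8 and Ehf at 13.8 were dim.

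Of 39 genes chosen by name 23 had a named clone. The 39 also include general and mesenchymal genes, such as Gapdh, Actb, Vim and Col1a1, so this is not the coverage of the segment. The other 16, among them Aqp2, Aqp3, Scnn1a, Avpr2, Hsd11b2 and Nr3c2, were not analysed here. The defining water channel, sodium channel and hormone receptors of the principal cell were thus not checked.

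The wider list of ion and water transport had 32 measured genes, a median of 66.8, 7 at 90 or more and 11 under 50. Its bright members were general: Atp6v1g1 (95.6), Atp6v1e1 (91.6) and Atp6v0e (90.03) of the vacuolar proton pump, the chloride channel protein Clic1 (95.4), the mitochondrial pores Vdac3 (94.4) and Vdac1 (94.0), and Atp1b3 (91.6). Atp1b3 and Atp1b1 encode beta subunits of the sodium pump. Atp1b1 was at 86.6, 85.1, 85.6 and 59.4, and its 3 clones were at 67.9, 74.5 and 97.7. Slc12a2, the basolateral cotransporter of sodium, potassium and chloride, was at 30.9, 14.8, 56.9 and 55.2, below the middle in pair 1 and near it in pair 2. Oxsr1, a kinase that activates such cotransporters, was at 23.8 ± 10.2 (SD, n = 4 channels), the lowest of the list, and Clcn5 at 24.1 ± 26.0 (SD, n = 4 channels).

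Markers of other nephron segments were few and mostly not bright. For the proximal tubule 5 genes were measured of 35, with a median of 37.1, which was 11.2 in pair 1 and 63.1 in pair 2. The endocytic receptor gene Lrp2 was at 6.4, 4.5, 19.6 and 19.96. Gatm, which makes a precursor of creatine, was listed in the same group but differed by pair, at 6.3 and 39.9 against 94.4 and 94.0, with spot intensities of 347 and 296 against 5637 and 4513. Miox was likewise at 16.0 and 6.4 against 67.3 and 58.8. In each of these genes the channels of pair 2 were above those of pair 1, an order found in 27.1% of all named genes (1932 of 7132). Spp2 and Gpx3, also measured, are not given here.

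For the loop and distal tubule, Irx3 was at 73.8, 74.6, 78.7 and 75.2, and Wnk4 at 28.0. For podocytes, Podxl, a sialomucin also found on other cells, was at 83.4, 81.6, 77.8 and 78.4, whereas Wt1, the defining transcription factor, was at 10.2, 1.1, 7.9 and 18.0.

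Genes of 7 cell types outside the nephron epithelium were pooled to see where clones of genes known mainly from other cells lie. They were endothelium, leukocyte, erythroid, muscle, neuron, liver with yolk sac, and germline with placenta, 53 genes in all, among them Slc4a1, which is also an intercalated cell gene. Their median was 33.9, and 90% of them lay under 55.2. The fibroblast and matrix list, given below, was not part of the pool, and 8 of its 22 measured genes lay above that limit. Of the 53 genes 43 were under 50, 2 were at 75 or more and 1 was at 90 or more. A level up to about 55 is therefore also found for markers of other cell types on this array, and the mean levels of Fxyd4, Sgk1, Gata3 and Calb1 lie below it. For Sgk1 this holds in pair 2 alone (27.5, against 78.2 in pair 1), and 3 of the 4 channels of Gata3 lie above it.

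Within these lists, Cdh5 (23.9) and Pecam1 (23.7) of endothelium, Lyz2 (32.4) and C1qa (31.1) of macrophages, and Pou5f1 (15.1) and Ddx4 (17.7) of the germ line were all dim. The 8 leukocyte genes had a median of 32.4, the 5 endothelial genes 28.9, the 8 liver and yolk sac genes 30.1 and the 18 germline and placenta genes 26.1, of which 16 were under 50. The 7 erythroid genes had a median of 42.6. The exceptions were Tubb3, a tubulin named for neurons, at 93.4, 92.5, 86.8 and 87.8, and Dppa3, an oocyte gene, at 74.98, 61.7, 86.2 and 82.3. Mbp, a myelin gene, was at 66.2, 64.5, 77.4 and 70.1, and the only muscle gene, Tnnt1, at 54.3, 52.5, 86.4 and 86.9. Alb was at 13.4 and 12.2 in pair 1 and 72.1 and 70.5 in pair 2.

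Fibroblast and matrix genes had a median of 42.2 over 22 measured, with none at 90 or more and 13 under 50. Timp2, an inhibitor of metalloproteinases, was the brightest at 82.1, 72.6, 81.5 and 78.4. The collagen genes Col1a1 (37.8) and Col1a2 (42.4) and the matrix gene Sparc (40.7) were below the middle by the median of their clones, and the growth factor receptor gene Pdgfra was at 19.7. By its brightest clone Col1a2 was at 61.3 and Sparc at 75.8, above the middle. Vim, the filament protein of mesenchyme and of cultured cells, was at 26.1 and 28.9 in pair 1 and 80.9 and 84.4 in pair 2. Mmp2 was at 45.9 and 46.0 against 94.8 and 93.2. Serpinh1, a collagen chaperone, went the other way, at 89.6 and 86.3 against 51.0 and 27.6. The mean over the 4 channels describes neither pair for these 3 genes.

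Genes of cell division were bright, in cells that had reached confluence before the change of medium. The list had 42 measured genes, a median of 77.4, 23 at 75 or more, 10 at 90 or more and 6 under 50. H2az1, a histone variant, was at 98.6, 98.4, 98.1 and 98.4 over 5 clones. Pcna, the sliding clamp of DNA polymerase, was at 98.1, 98.2, 96.7 and 96.4, and Gmnn, an inhibitor of DNA licensing, at 97.9 ± 0.20 (SD, n = 4 channels). The cyclin and kinase genes Cdk4 (95.2), Ccnd1 (94.3) and Cdk1 (92.1) were at 90 or more, as were Cks2 (92.1), Kif11 (91.1) and Ube2c (91.1). The dimmest were Ccne1 (37.6) and 2 brakes of the cycle, Rb1 (27.8) and Cdkn1b (14.8), each on 1 clone.

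Other bright genes outside the lists were picked after their values were seen and serve as description. Ptma (98.8), Hmgb2 (98.6) and Mif (98.7) encode abundant small proteins. Tnfrsf12a, the receptor for TWEAK, was at 98.3 ± 0.26 (SD, n = 4 channels). Agt, which encodes angiotensinogen, was at 97.7, 96.1, 99.1 and 99.4. Cxcr4, a chemokine receptor, was at 97.1, 95.6, 98.1 and 97.9. Epithelial surface genes in this range were Spint2 (96.4), Wfdc2 (96.6), Cd9 (95.9), Sdc4 (94.6) and Cd24a (94.1). At the other end the 10 dimmest genes were Slc49a4, Usp2, D4Ertd617e, Pold3, Eprn, Evl, Fam104a, Arhgef4, 4930527J03Rik and Pdcd5, from 5.0 down to 3.2. Pdcd5 had spot intensities of 349, 142, 375 and 595 and percentiles of 6.6, 0.035, 5.9 and 0.29.

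The glucocorticoid genes are given because the titles and the treatment field differ, as values alone. The receptor gene Nr3c1 was at 51.5, 63.4, 75.6 and 62.6. The 11 measured genes of the list, 26 in all, had a median of 63.3. Sgk1 was at 78.8, 77.6, 22.4 and 32.7, with spot intensities of 666, 579, 537 and 918. Fkbp5, a receptor co-chaperone induced by glucocorticoids, was at 84.9, 86.0, 9.2 and 13.03, and Nfkbia, the inhibitor of NF-kappaB, at 83.5, 79.7, 32.0 and 7.8. In these 3 genes both channels of pair 1 were above both channels of pair 2 by over 50 points in the pair means. A gap of over 50 points in this direction was seen for 107 of all 7132 named genes, 1.5%.

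No other gene of that list differed by over 50 points. Mt1 and Mt2 were at the top of every channel. Fkbp4, another receptor co-chaperone, was at 85.9, 84.9, 84.9 and 85.0, Errfi1 at 79.0, 78.5, 78.9 and 81.5, and Gadd45g at 73.0, 82.6, 80.4 and 84.0. Klf9 was at 57.5. Cdkn1c was at 0.55, 25.8, 35.2 and 63.7, lower in pair 1. Within pair 1 the treatment field names steroid-free medium for Cy3 and dexamethasone for Cy5. These channels were close for Sgk1, Fkbp5 and Nfkbia. They were further apart for Cdkn1c (0.55 and 25.8), Gadd45g (73.0 and 82.6) and Nr3c1, given above. What set the pairs, or the channels of pair 1, apart in any of these genes was not tested.

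**Figure D3:**
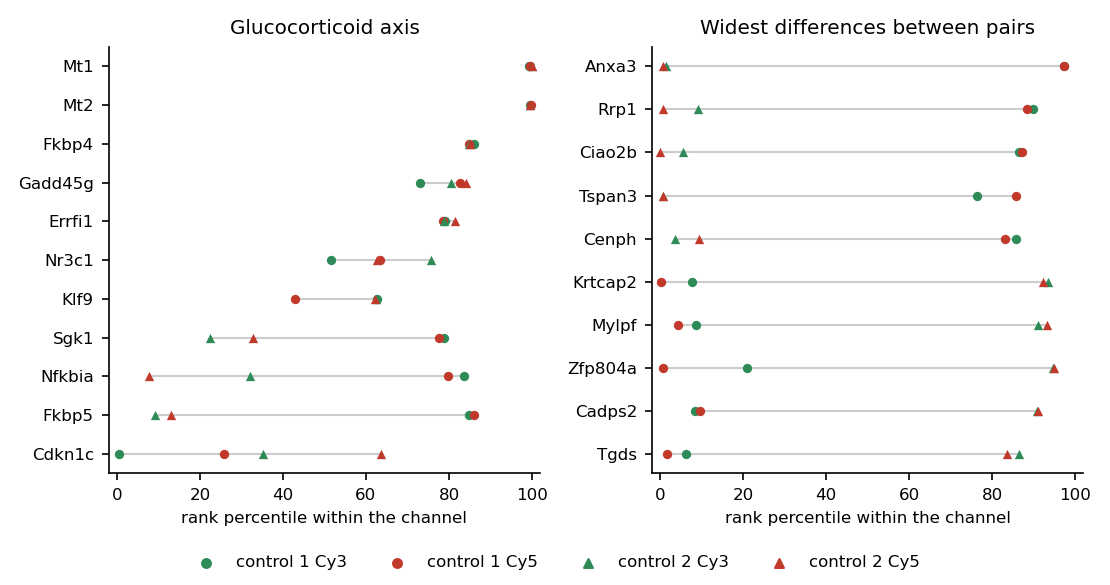
Glucocorticoid genes (left) and the genes with the widest differences between pairs (right). The horizontal axis is the percentile within the channel, circles are pair 1, triangles pair 2, green is Cy3 and red is Cy5. On the left Sgk1, Fkbp5 and Nfkbia lie to the right in pair 1, while Mt1, Mt2 and Fkbp4 coincide. On the right the 2 channels of a pair lie on the same side in every gene, which was a condition of the choice.

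How well the pairs agreed depended on the brightness. Across 15561 clones the percentiles of the channels correlated at Spearman rho = 0.852 within pair 1, 0.882 within pair 2 and 0.539 to 0.583 between channels of different pairs. The pair means correlated at rho = 0.577 and Pearson r = 0.595, given as a description across clones, which are not independent. The median clone differed by 14.6 points between the pairs, 38.1% of clones differed by at most 10 points and 5.82% (905 clones) by over 50. The brightest 10% of each pair held 1557 clones, of which 1070 were common to both, 68.7% of each. Of the dimmest 10%, 328 clones were common, 21.1% of each, where unrelated orders would share about 10%.

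**Figure D4:**
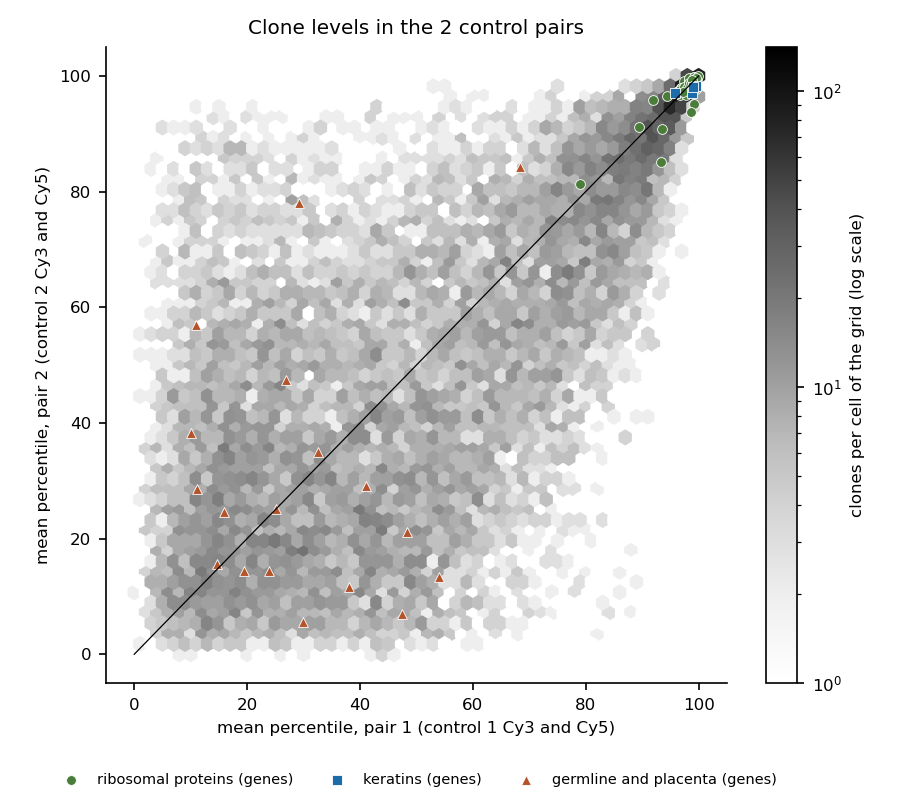
Clone levels in pair 1 (horizontal axis) and pair 2 (vertical axis), each the mean percentile of 2 channels. Grey shading counts clones per cell of the grid on a log scale, and coloured symbols are genes of 3 lists. Clones gather on the diagonal at the bright corner, where ribosomal proteins and keratins lie, and form a broad cloud at the dim end, where most germline and placenta genes lie.

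The order of the dim clones was repeated only weakly. When clones were cut into 10 groups of equal size by pair 1, their median percentile in pair 2 was 28.6, 32.6, 34.6, 33.0 and 34.6 in the 5 dimmest groups. In the brighter groups it was 40.0, 51.7, 63.9, 77.9 and 94.0. The spread over the 4 channels was widest for clones with a mean of 25 to 50 and narrowest at the bright end. Its median SD was 11.6 points for clones with a mean of 0 to 25, 18.4 for 25 to 50 and 13.5 for 50 to 75. It was 5.33 for 75 to 90, 1.51 for 90 to 97.5 and 0.457 above 97.5. Clones were grouped by the mean of the same channels and the scale ends at 0 and at 100, which bounds the spread at both ends. Dim levels are read only as dim.

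**Figure D5:**
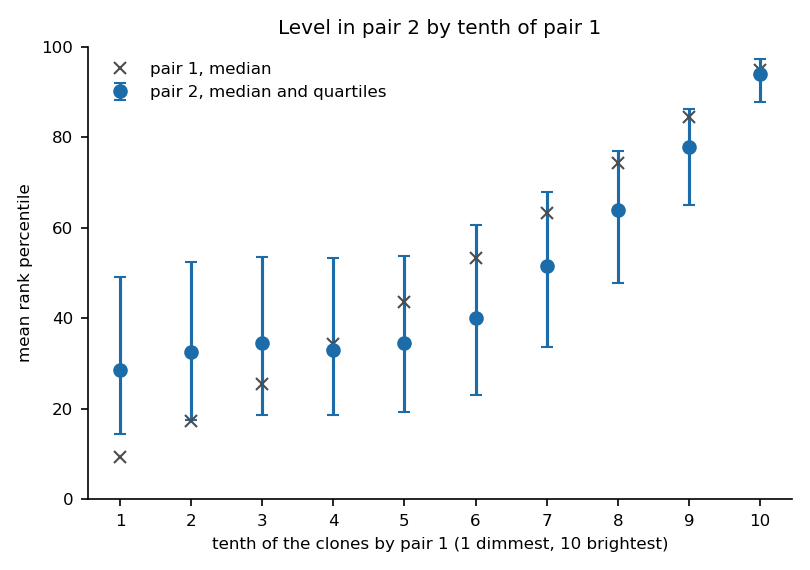
Median percentile in pair 2 (circles, with lower and upper quartiles as bars) and in pair 1 (crosses) of clones in 10 groups of equal size by pair 1 (horizontal axis, 1 dimmest to 10 brightest). Pair 2 stays between 28.6 and 34.6 over the 5 dimmest groups and reaches 94.0 in the brightest.

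Single genes differed far more than that between the pairs. Both channels of pair 1 were above both of pair 2 for 2868 of 7132 genes (40.2%), and the reverse held for 1932 (27.1%). In all, 163 genes (2.29%) were over 50 points higher in pair 2. The widest gap was that of Anxa3, an annexin, at 97.4 and 97.4 in pair 1 and 1.4 and 0.82 in pair 2, with spot intensities of 3137 and 4582 against 312 and 635. Rrp1, Ciao2b, Tspan3 and Cenph followed in the same direction. In the other direction Krtcap2, a subunit of the complex that adds sugar chains to proteins, was at 7.7 and 0.20 against 93.5 and 92.3. Mylpf, Zfp804a, Cadps2 and Tgds came next. All 10 of these genes had 1 clone. Only genes with both channels of 1 pair beyond both of the other could be picked, so agreement within a pair was a condition of the choice. The gaps were also chosen for their size, so they carry no test.

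Different clones of a gene give a second view of how far a level can be trusted. Of 533 genes with 3 or more clones, the median span between the lowest and the highest clone was 30.4 points, with quartiles of 15.1 and 46.2. In 51 genes the clones lay within 5 points and in 108 genes they spanned over 50. For the 84 such genes at 90 or more the median span was 5.09 points, and for the 207 under 50 it was 31.7. The level is the median of these same clones and the scale ends at 100, so a narrow span among bright genes is partly built in. The narrowest were Rpl6 (98.6 to 98.9), Cct5 (94.5 to 94.8), Naca (96.2 to 96.6), Krt18 and Rps15. The widest were Eif4g2, a translation regulator, with 5 clones from 8.2 to 94.5, Cltc (8.8 to 90.1), Sfpq (13.1 to 93.2), Clta (12.7 to 91.8) and Hnrnpa3 (20.9 to 98.7).

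For Clta, the clathrin light chain gene, the dim clone was at 12.0, 16.0, 7.8 and 15.1 and the other two clones were at 90.4 and 91.8 on average. The dim clone was dim in every channel. Clta was chosen for the wide span of its clones over these same channels, so this follows largely from the choice and is no check across pairs.

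Dye was compared because both channels of a pair were titled control. With limma on quantile-normalised log2 intensities, no clone of 15561 was higher in Cy5 and none was lower at a Benjamini-Hochberg adjusted p of 0.05, 0% in each direction. At an unadjusted p under 0.05 limma gave 4 higher and 26 lower clones. Chance alone would put about 1 in 20 clones under that limit, far more than were seen. The median size of the dye difference was 0.16 on the log2 scale, with a 95th percentile of 0.47, beside a median standard error of 0.32. This fit has no term for the pair number, so the gap between the pairs counts as error. A lack of calls in it therefore does not show that dye had no effect. With a term for the pair number some clones were called, as given under the dependence on processing.

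The 3 control Cy3 channels on the arrays with treated RNA were titled control too and took no part in the ranking. They list 12.1 to 12.8% of the spots, selected by a rule that no label states, so they show the order of a share of the clones only. Across 3371, 3518 and 3511 clones their log2 intensities correlated with the mean percentile of the 4 channels at Spearman rho = 0.607, 0.392 and 0.763. Clones at 90 or more here had median ranks of 94.2, 90.1 and 96.7 there, and clones under 50 had 35.2, 40.5 and 31.3. Among clones with both spots listed there (395, 463 and 476), those at 90 or more had median ranks of 82.9, 79.6 and 91.4. In the median, bright clones thus ranked high in all 3 channels. The correlation over all listed clones was weakest in the channel of control 4.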

How the data were processed

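RNA of M-1 cells was reverse-transcribed from oligo-dT primers with capture sequences for Cy3 or Cy5 dendrimers, hybridised to duplicate-spotted cDNA arrays and read on a ScanArray 5000 scanner, with spots quantified in Imagene 4.0, per the labels and the design text. The deposited values are linear spot intensities, 1 column per channel. Any background correction, scaling or spot filter was not given in the labels or the design text, and the spread of medians shows no common scale, which is why ranks within a channel were used.

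From the deposited intensity values, log2 was taken, the 2 spots of a clone averaged, and clones valued in all 4 channels (15561, with 39 left out) ranked within each channel. Symbols came from the platform annotation, updated through gene identifiers, of which 7056 were found in RefSeq. Clones with several symbols (274) or none (5460) were ranked but not named. Rank levels have no test. The dye was tested with limma 3.58.1 in R 4.3.3 on quantile-normalised log2 values without a block, after a trial on simulated data. The number of arrays limits the precision.

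Genes were named by a rule: the 25 brightest and 10 dimmest, in each of 26 lists the 5 brightest, the 3 dimmest and any at 90 or more, 39 genes by name, the 5 widest gaps between pairs in each direction, and the 5 widest and 5 narrowest clone spans. A gap counted only where both channels of 1 pair lay beyond both of the other. Some genes were picked outside the rule, among them Tjp1, Jup, Perp and Klf9 and the bright genes said to lie outside the lists. The members and lists were chosen with earlier results of these data known. Alternatives were single dyes, single pairs, the brightest clone, quantile-normalised levels, linear averaging and leaving out clones whose spots differed by over 1 on the log2 scale. The treated channels were not used.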

Additional observations from a re-analysis of the deposited data

Results flagged for a closer look

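In 1 of 47 sets of 4 values (23 genes and 24 lists) a channel stood apart from the other 3 beyond Dixon's 95% limit. Atp1b1, a beta subunit of the sodium pump, was at 59.4 in control 2 Cy5, whereas the other 3 channels had a median of 85.6. The gap was 0.946 of the whole range of the 4 values. Among groups of independent values chance sets apart about 1 in 20. The channels here come in pairs that agree, so that rate need not hold for them. The level of Atp1b1 is the median of 3 clones, which in control 2 Cy5 stood at 59.4, 56.9 and 98.4.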

How the results depend on the processing

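Of the values for lists, agreement and dye under the alternatives, 165 stayed within the spread of the main value and 46 moved further. For values without one pair, that spread already holds the gap between the pairs, so staying within it says nothing about stability. No list with a median above 75 went below 74.96, while lists under 50 reached up to 63.1. With Cy3 alone the medians were 80.7 for junctions, 98.4 for ribosomal proteins and 69.5 for ion transport, and the agreement of the pairs was 0.540. With Cy5 alone they were 77.8 for junctions and 42.8 for endothelium. With the brightest clone for each gene they were 32.8 for intercalated cells, 81.4 for junctions, 58.5 for podocytes, 52.0 for fibroblasts, 31.8 for germline and placenta, 98.9 for ribosomal proteins, 94.6 for translation, 90.7 for oxidative phosphorylation, 92.4 for the cytoskeleton, 90.7 for chaperones, 83.4 for proliferation and 73.0 for ion transport. With quantile-normalised levels they were 19.6 for intercalated cells, 82.1 for junctions, 24.1 for liver, 18.4 for germline and placenta, 93.4 for translation, 91.9 for the cytoskeleton and 69.9 for ion transport. Without clones whose spots differed, ion transport was 61.6. The cause was not tested.

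Leaving out each pair in turn gave medians of 11.2 to 63.1 for the proximal tubule, 35.0 to 58.1 for neurons, 32.2 to 50.6 for principal cells, 77.9 to 78.8 for junctions, 33.1 to 43.6 for leukocytes, 38.8 to 54.6 for erythroid genes, 42.5 to 50.5 for fibroblasts, 27.4 to 38.8 for liver, 98.4 to 98.5 for ribosomal proteins, 91.7 to 94.0 for translation, 95.6 to 97.0 for glycolysis, 87.1 to 90.7 for oxidative phosphorylation, 83.2 to 89.8 for chaperones, 74.96 to 84.0 for proliferation, 64.1 to 66.5 for ion transport and 69.1 to 78.8 for the glucocorticoid genes. Among genes followed by name it moved Sgk1, Fkbp5, Cdh1, Emx2, Vim, Col1a1 and Slc12a2 by over 1.5 times, Fkbp5 most, from 11.1 to 85.4. The agreement of the pairs was 0.448 over clones above the median intensity, and that with the other control channels 0.392 in control 4 Cy3 alone.

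For the dye, the pair number as a replicate block called 1 clone higher and 30 lower in limma, and lowess within pairs with the block 1 and 16. Deviations of same-numbered channels from their dye means correlated at 0.8293, but no label says that a number marks a shared slide. Median centring and bright clones alone called none. Leaving out a pair was not run for the dye, since no residual degrees of freedom remain. Dim clones near the lowest signal of a channel limit the depth: their order was only weakly repeated between pairs.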
